A study of Mus musculus with 2 samples.

Results

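The 10 genes described here are Tyrobp, Fcer1g and Hcst, which encode the membrane adaptors DAP12, the Fc receptor gamma chain and DAP10, the receptor genes Trem2, Fcgr1, Fcgr2b, Fcgr3 and Fcgr4, and the kinase genes Syk and Lyn. They were chosen by symbol from the 20034 genes of the deposited matrix, and all 10 had a row. The study profiled macrophages induced from mouse fibroblasts with c-Myc, wild type by genotype, which were detached with EDTA and encapsulated in droplets on the DNBelab C4 system. By the labels, a cDNA and an oligo library were made from these cells, with no control and no second condition. The matrix held 6837 barcodes whose names showed no sample, so the cells formed 1 sample and no difference between conditions could be tested. The 6751 barcodes with at least 500 detected genes and at most 15% mitochondrial counts are called cells below, and no barcode name occurred more than once.

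DAP12 and the Fc receptor gamma chain carry an immunoreceptor tyrosine-based activation motif (ITAM) in their short cytoplasmic tails and bring it to receptors that have no signalling tail of their own. TREM2, a receptor for lipids and lipoproteins on tissue macrophages and microglia, signals through DAP12, whereas FcγRI, FcγRIII and FcγRIV, the activating receptors for IgG encoded by Fcgr1, Fcgr3 and Fcgr4, signal through the Fc receptor gamma chain. Src family kinases such as Lyn phosphorylate the motif, Syk then binds it, and FcγRIIB, the product of Fcgr2b, opposes these signals through an inhibitory motif of its own. DAP10 has a different motif that binds the lipid kinase PI3K.

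In GRCm38 with the GENCODE M21 annotation, 4 members lay in 1 stretch of chromosome 1, in the order Fcgr2b (chr1:170958617-170976547, minus strand), Fcgr4 (chr1:171018920-171029761, plus strand), Fcgr3 (chr1:171051174-171064935, minus strand) and Fcer1g (chr1:171229572-171234365, minus strand). Fcgr1 lay apart from them at chr3:96282909-96293969 on the minus strand. Tyrobp (chr7:30413760-30417585, plus strand) and Hcst (chr7:30417712-30419854, minus strand) were neighbours with their 3′ ends facing each other, 127 bases apart. Trem2 lay at chr17:48346401-48354147, Syk at chr13:52583173-52648792 and Lyn at chr4:3678115-3813122, all on the plus strand. Whether reads were assigned by strand is not given in the sources used here. Counts of Lyn and Fcgr2b therefore cannot be told apart from those of the antisense genes that overlap them (Gm26857, Gm11805, Gm22781 and 9430025C20Rik for Lyn, Gm38204 for Fcgr2b). On the same strand, Gm26110 overlaps Fcgr4 and Mir6546 overlaps Fcgr3, and how reads in these overlaps were counted is not given either. The Fcgr2b and Fcgr3 transcripts shared 233 stretches of 31 bases, which was 6.63% of those in Fcgr2b and 17.7% of those in Fcgr3, and none of the shared stretches lay in the last 500 bases of either transcript. How reads that match both genes were counted is not given in the sources used here, and the counts of this pair are uncertain to that extent. No other pair of the 4 Fcgr genes shared such a stretch.

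Many macrophage genes, Fc receptor genes among them, are known targets of PU.1, a transcription factor that binds purine-rich DNA. The 100 bases before the RefSeq start (GRCm38.p6) were searched on both strands for GAGGAA, for the motif AGGAAGT and for GAGGAAGT, the last of which contains both others. The windows are shown for Fcgr4, Fcgr1, Fcgr3 and Trem2, the receptor genes that were higher together in a cluster of cells described further on, and for Fcgr2b, which was not. Because the windows shown were picked by those levels, whether matches go with levels was not tested. They are written 5′ to 3′ on the strand of the gene, and capitals mark a match or its reverse complement.
Fcgr4, chr1:171018826-171018925, plus strand: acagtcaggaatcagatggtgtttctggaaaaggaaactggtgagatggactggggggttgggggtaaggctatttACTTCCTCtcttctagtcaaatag
Fcgr1, chr3:96293970-96294069, minus strand: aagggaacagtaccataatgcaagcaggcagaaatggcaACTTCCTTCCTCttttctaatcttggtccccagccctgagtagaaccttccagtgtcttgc
Fcgr3, chr1:171059404-171059503, minus strand: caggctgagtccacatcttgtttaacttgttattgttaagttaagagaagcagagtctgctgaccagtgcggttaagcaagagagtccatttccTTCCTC
Trem2, chr17:48346301-48346400, plus strand: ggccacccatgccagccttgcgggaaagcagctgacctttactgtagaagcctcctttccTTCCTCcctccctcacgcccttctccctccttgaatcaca
Fcgr2b, chr1:170976072-170976171, minus strand: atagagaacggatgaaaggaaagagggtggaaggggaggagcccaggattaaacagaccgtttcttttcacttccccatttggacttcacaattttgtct

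GAGGAA occurred in the first window of 4 of the 8 members that had one (Fcgr4, Fcgr1, Fcgr3 and Trem2), and in 9.82% of 32851 RefSeq windows of the same length. AGGAAGT occurred in 3 of the 8 (Hcst, Fcgr1 and Fcgr4) and in 3.66% of all windows, and GAGGAAGT in Fcgr4 alone and in 1.15% of all windows. The shares over all windows count every window of a gene, which can have more than 1, so the units differ. Syk had GAGGAA in its second window. In the cluster by which windows were picked, Syk and Hcst had log2 ratios of 0.49 and 0.25, under the threshold used there. The matches are letters in a sequence and say nothing of binding. Over single cells, the r of Spi1, which encodes PU.1, lay between -0.06 (Tyrobp) and 0.08 (Fcgr3) with the members, by the measure of co-variation described further on. No window was at hand for Tyrobp and Lyn. The RefSeq starts of Fcgr3, Fcgr2b and Syk lie inside the GENCODE genes, so that their first windows are not upstream of the annotated gene's first base. Those of Fcgr4 and Fcer1g lie inside too, but close to that base, so that a part of each first window falls within the gene.

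Levels are counts per 1000000 counts of the summed cells (CPM), and all 10 members reached 10 CPM, a level that 33.2% of all genes reached. Together they made up 0.810% of all counts, and 0.769% of the counts of the median cell, with 80% of cells lying between 0.477% and 1.12%. Tyrobp alone gave 70.3% of these counts. Only 13 cells had no count of any member, and 146 cells, 2.16% of the total, had counts of all 10. The cells held 1001 to 192369 counts each, with a median of 17178, and the intervals below are exact 95% Poisson intervals of the summed counts or exact binomial (Clopper-Pearson) intervals of a share. They cover counting error only, because there is no second sample.

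Among the adaptors, Tyrobp stood at 5699.67 CPM (5687.99 to 5711.37), and 80% of cells held between 7 and 314 counts of it, with a median of 96. It was found in 99.4% of cells. Fcer1g stood at 1502 CPM (1496 to 1508), with a median of 27 counts per cell, and was found in 96.6% of cells. Hcst stood at 16.4 CPM (15.8 to 17.1) and was found in 24.7% of cells, with at most 8 counts in a cell. Both adaptors that carry an ITAM were therefore read in nearly every cell, and the PI3K-binding adaptor in a minority at this depth.

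Trem2 stood at 301 CPM (299 to 304) and was found in 84.0% of cells, with a median of 5 counts. Among the activating IgG receptors, Fcgr3 stood at 234.0 CPM (232 to 236) in 79.8% of cells and Fcgr1, the high-affinity receptor, at 164 CPM (162 to 166) in 70.4%. Fcgr4 stood at 10.9 CPM (10.4 to 11.4) and was found in 12.4% of cells (11.6 to 13.2), although a single cell held as many as 34 counts of it. The inhibitory receptor gene Fcgr2b stood at 79.3 CPM (77.9 to 80.7) in 52.2% of cells. Of the kinases, Lyn stood at 69.6 CPM (68.3 to 70.9) in 56.2% of cells and Syk at 24.1 CPM (23.3 to 24.9) in 31.7%.

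Divided by the length of the longest coding transcript in GENCODE M21, the levels ran from 9547 CPM per kilobase for Tyrobp (597 bases) and 2200 for Fcer1g (683 bases) to 277 for Trem2, 174 for Fcgr3 and 63.4 for Fcgr1. The lower part of the order was 37.1 CPM per kilobase for Hcst, 22.4 for Fcgr2b, 20.1 for Lyn, 8.64 for Fcgr4 and 4.49 for Syk. No neighbours in this order overlapped in their counting intervals, but no spread between samples could be set beside them. Which end of the transcript was read is not given in the sources used here, and in a library that reads 1 end a level per kilobase overcorrects long transcripts such as that of Syk (5363 bases). Without ribosomal protein, mitochondrial, Gm42418 and AY036118 counts in the total, all CPM rose by the same factor, Tyrobp to 9426 and Fcgr4 to 18.0.

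**Figure D1:**
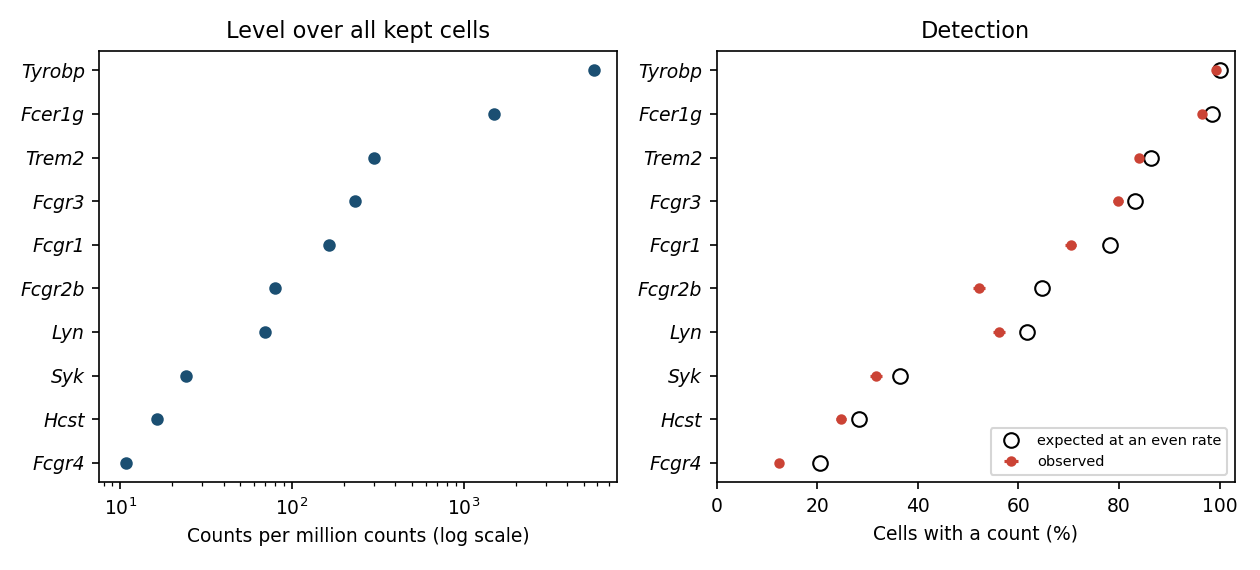
Level of each member in CPM over 6751 cells (log axis) and share of cells with a count. Bars are exact 95% counting intervals, mostly narrower than the points, and the levels run from 10.9 for Fcgr4 to 5699.67 for Tyrobp.

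Cells differed widely in depth, so the share of cells with a count was read against depth. Cells were ordered by their counts and split into 5 groups of equal size, whose medians were 1911, 7475, 17179.5, 31019.5 and 54317.5 counts. Fcer1g was found in 84.4% of the shallowest group and in 98.6% of the next, and Tyrobp in 97.0% and 99.9%. Trem2 was found in 41.3%, 82.7%, 96.7%, 99.3% and 100% of the groups from the shallowest to the deepest, and Fcgr1 in 25.2%, 55.3%, 80.1%, 92.5% and 98.96%. In the deepest group, then, nearly all cells held counts of both ITAM adaptors, Trem2, Fcgr1 and Fcgr3 (99.9%).

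The kinases and the inhibitory receptor were still rising with depth in the deepest group. Lyn went from 13.03% of cells in the shallowest group to 94.6% in the deepest, Syk from 4.5% to 66.8%, Hcst from 3.3% to 49.5% and Fcgr2b from 15.2% to 87.6%. Fcgr4 took a flatter course and was found in 2.3%, 5.9%, 12.2%, 18.0% and 23.4% of the groups. If the Fcgr4 counts of each group had been spread over its cells in proportion to their depth, 2.3%, 8.2%, 17.5%, 33.0% and 43.4% of cells would have held one.

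The level itself moved little between the shallowest and the deepest group. Tyrobp was 4283 CPM in the shallowest group and 5642 CPM in the deepest, a log2 difference of 0.40. The log2 differences of the other 9 members lay between -0.19 (Hcst) and 0.09 (Syk). None of the 10 passed 1.5-fold between these ends, as 2.16% of the genes at 10 CPM or more did. In the groups between, Tyrobp stood at 5964, 5887 and 5738 CPM, above both ends. Fcgr2b stood at 66.4, 73.4 and 73.6 CPM there, against 87.0 and 85.3 CPM at the ends. With 10 groups in place of 5, Fcgr4 differed by 0.60 on the log2 scale, higher in the deepest group, and was the 1 member that passed. With 5 groups it had gone the other way, at -0.15. The shallowest of the 5 groups held only 31 counts of Fcgr4 (7.39 to 15.4 CPM), so that sign and size rest on few counts.

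**Figure D2:**
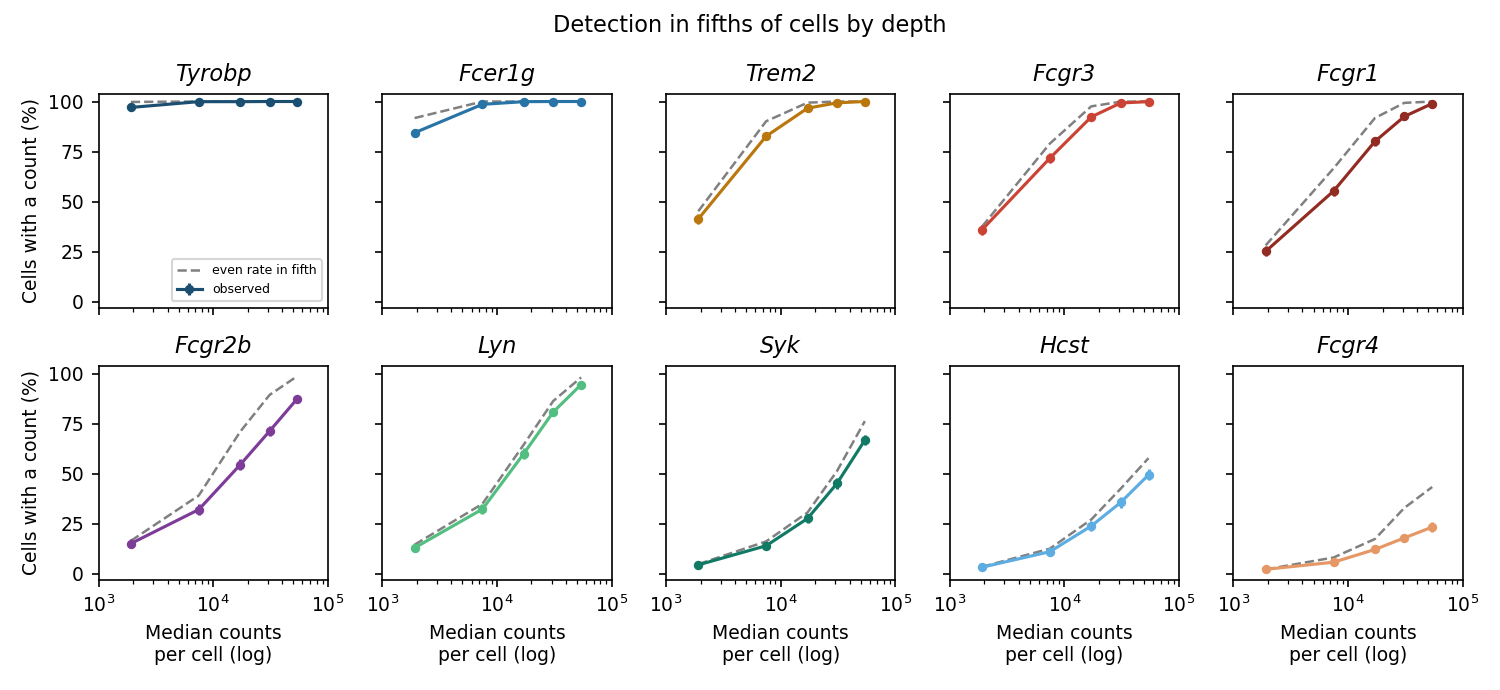
Share of cells with a count of each member (y axis, percent) against the median counts per cell (x axis, log) in 5 groups of cells ordered by depth; bars are exact 95% binomial intervals and the dashed line is the share an even rate in each group would give. Observed shares of Fcgr4 fall from the line in the deeper groups (23.4% against 43.4%), as do those of Fcgr2b (87.6% against 98.9%).

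Over all cells, a gene spread evenly in proportion to depth would have been found in 99.992% of cells for Tyrobp, 64.6% for Fcgr2b and 20.6% for Fcgr4. The observed share was under 0.9 of this expected share for 4 of the 10 members (Hcst, Fcgr2b, Fcgr4 and Syk), and for 40.3% of the genes at 10 CPM or more, so that the count itself does not set the members apart. Fcgr4 had the lowest ratio, 0.599, and 26 of the 6656 genes at 10 CPM or more (0.391%) had a lower one. Fcgr2b followed at 0.807, with 453 genes (6.81%) below it. Lyn at 0.910 lay close to the median gene at 0.914. Hcst at 0.876 and Syk at 0.866 were lower, with 25.7% and 21.6% of genes below them.

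When each cell was thinned at random to 10000 counts, which 4312 cells had and 2439 did not, Fcer1g was found in 99.98% of cells, Trem2 in 91.0%, Fcgr3 in 84.1% and Fcgr1 in 69.1%. Lyn was then found in 45.9%, Fcgr2b in 43.4%, Syk in 19.4%, Hcst in 15.5% and Fcgr4 in 8.35%. The variance over the mean of these thinned counts, which is 1 for pure counting error, grows with the mean where cells differ, so it was read between members of like mean. It was 1.82 for Fcgr4 at a mean of 0.117 counts, against 1.14 for both Hcst (mean 0.180) and Syk (mean 0.228). It was 1.94 for Fcgr2b at a mean of 0.778 counts, against 1.2 for Lyn (mean 0.671). No cell type known to lack these genes was identified among the barcodes, so the share of cells that free RNA alone would give was not measured.

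Co-variation was described by Pearson's r of log2(thinned count + 1) over the 4312 thinned cells, which all belong to 1 matrix. Of the 45 pairs of members, 14 reached r = 0.1, which 0.856% of all pairs of genes at 10 CPM or more did. The median r was 0.046 over member pairs and 0.0075 over all pairs. Since r is held down where counts are few, the 7 members at 50 CPM or more were also read apart, and 9 of their 21 pairs reached 0.1, against 5.1% of all pairs at that level.

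Fcer1g had 5 partners among the members at r = 0.1 or more, as did Trem2, Fcgr3 and Fcgr4. Its r was 0.30 with Trem2, 0.27 with Tyrobp, 0.23 with Fcgr1, 0.22 with Fcgr3 and 0.23 with Fcgr4, which are the activating receptors whose products it carries to the cell surface, together with the other ITAM adaptor and a receptor that uses DAP12. Tyrobp reached 0.14 with Trem2 and 0.11 with Fcgr4, but only 0.02 with Fcgr1 and 0.04 with Fcgr3. Among the receptors, Fcgr1 and Fcgr4 reached 0.20, Fcgr3 and Fcgr4 0.19, Trem2 and Fcgr4 0.18, and Fcgr1 and Fcgr3 0.17. Apart from Fcer1g with Tyrobp, which were both found in 99.98% of these cells, these values rest on low counts and are weak. As a mean of r within clusters of cells, described further on, 7 of the 45 pairs reached 0.1 (0.178% of all pairs), and 6 of these were among the 14. Without cluster 1 of those clusters, 5 pairs did (0.819% of all pairs), all of them among the 14: Fcer1g with Tyrobp (0.24), Trem2 (0.23), Fcgr1 (0.13) and Fcgr3 (0.10), and Fcgr2b with Fcgr3 (0.13).

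Fcgr2b had r = 0.14 with Fcgr3, the gene with which it shares sequence, 0.10 with Fcer1g (just under the threshold), 0.08 with Fcgr1, 0.01 with Fcgr4 and -0.10 with Tyrobp. The kinases reached 0.1 with no member, Lyn with -0.06 against Tyrobp and 0.08 against Fcgr1, and Syk with 0.08 at most. Hcst, whose gene neighbours Tyrobp, reached 0.04 with it and no more with any other member, and no gene at 10 CPM or more reached 0.1 with Hcst.

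**Figure D3:**
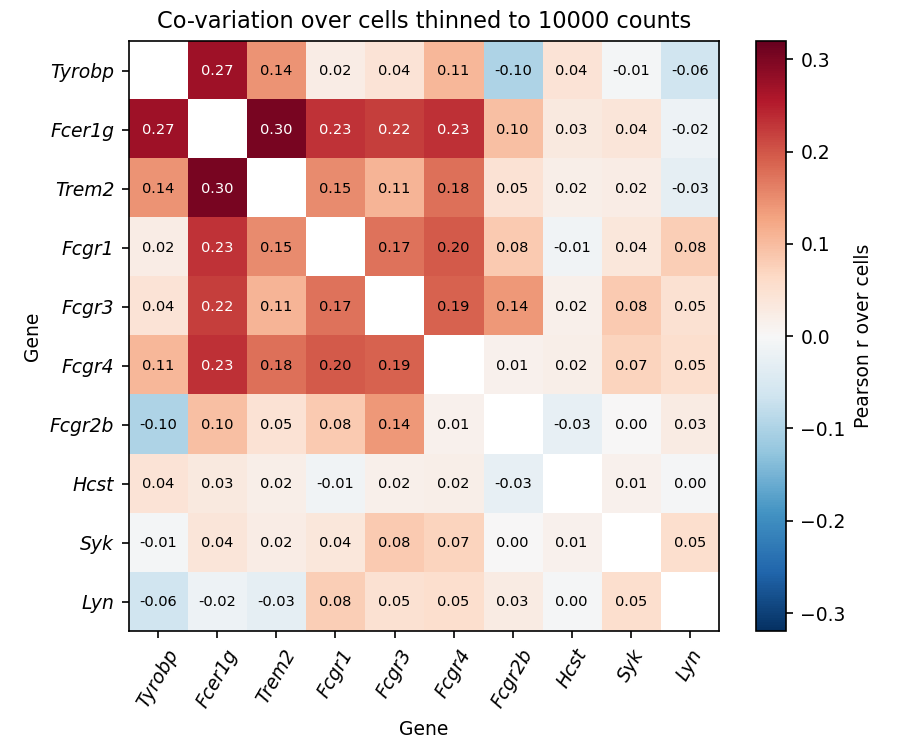
Pearson r of log2(thinned count + 1) for each pair of members over 4312 cells thinned to 10000 counts; red is positive, blue negative. Fcer1g, Trem2, Fcgr1, Fcgr3 and Fcgr4 form a red square (0.11 to 0.30), and Hcst, Syk and Lyn stay close to 0.

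Cells with a thinned count of Fcgr4 can be set beside those without. In the 360 with a count, Fcer1g stood at 2187 CPM, against 1524 CPM in the 3952 without. Fcgr1 stood at 302 and 151 CPM, Fcgr3 at 383 and 223 CPM, and Trem2 at 479 and 298 CPM. Syk stood at 35.8 CPM (29.9 to 42.6) and 21.7 CPM (20.2 to 23.2), and Lyn at 83.1 and 65.7 CPM. Tyrobp differed less, at 6465 and 5734 CPM. Of the thinned cells of cluster 1, described further on, 26.4% held a count of Fcgr4, against 8.35% of all thinned cells. Fcer1g, Fcgr1, Fcgr3, Trem2 and Syk were also highest in that cluster, and its part in these differences was not tested.

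The genes outside the set whose pattern was most like that of a member were taken among genes at 50 CPM or more other than ribosomal protein and mitochondrial genes named Rpl, Rps or mt-. For Fcer1g they were Lgals1 (r = 0.47), which encodes galectin-1, and the lysosomal proteases Ctsd (0.38) and Ctsb (0.37). For Trem2 they were Ctsd (0.36), Ctsb (0.35) and the ferritin gene Fth1 (0.33), for Fcgr3 Ctsb (0.31), Ftl1 (0.29) and Tmsb4x (0.26), and for Fcgr1 the complement gene C1qc (0.34), Ctsb (0.33) and C1qa (0.32). Tyrobp had other partners, among them Gm10076 (0.43) and Fau (0.41), which encodes a ribosomal protein fused to a ubiquitin-like protein. The values were lower for Fcgr2b, with Fth1 (0.22), Maf (0.20) and C1qc (0.19), and for Lyn, with Actb (0.19), Hsp90b1 (0.17) and Gnai2 (0.13). For Fcgr4, which is under 50 CPM and was looked up after its values were seen, they were Timp2 (0.34), Ctsb (0.33) and Selenop (0.30).

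The members were also set against the summed counts of fixed gene lists. The r with 16 Myc targets, genes of growth and ribosome assembly that c-Myc is known to drive, was -0.50 for Fcer1g, -0.40 for Tyrobp, -0.29 for Trem2, -0.28 for Fcgr4, -0.19 for Fcgr3 and -0.16 for Fcgr1, but 0.05 for Fcgr2b and 0.06 for Lyn. The r with Myc itself, a single gene and not a sum, was -0.18 for Fcer1g, -0.11 for Trem2 and -0.09 for Tyrobp. For the other members it lay between -0.07 (Fcgr4) and 0.04 (Lyn). With 16 lysosomal genes it was 0.35 for Fcgr3, 0.32 for Trem2 and Fcgr4, and 0.31 for Fcer1g and Fcgr1, but 0.12 for Fcgr2b, 0.11 for Lyn, 0.09 for Syk and 0.08 for Tyrobp. With 10 genes of lipid-associated macrophages it was 0.40 for Fcer1g, 0.37 for Trem2, 0.34 for Fcgr4, 0.31 for Fcgr1 and 0.30 for Fcgr3, and 0.15 for Tyrobp and 0.10 for Fcgr2b. With 18 general macrophage genes it was 0.37 for Fcer1g, 0.36 for Fcgr3, 0.33 for Fcgr4, 0.29 for Fcgr1 and 0.24 for Trem2. Except for Trem2, which was lower, these members were thus about as close to macrophage genes in general as to the lipid-associated list. With 14 interferon response genes it was 0.31 for Fcgr1, 0.29 for Fcgr4, 0.25 for Fcer1g, 0.17 for Trem2 and 0.16 for Fcgr3. With 7 monocyte and granule genes it was -0.27 for Trem2, -0.17 for Fcer1g and -0.15 for Fcgr1. For the other members it lay between -0.10 (Fcgr4) and 0.05 (Lyn) there. With 20 genes of G2 and M phase it was 0.20 for Fcgr2b, but -0.30 for Tyrobp, -0.20 for Fcer1g and -0.18 for Fcgr4. It was -0.13 there for both Trem2 and Fcgr3. With 20 genes of S phase it was -0.22 for Tyrobp, -0.20 for Fcer1g, -0.16 for Fcgr4, -0.15 for Fcgr3 and -0.14 for Trem2. Thinned counts sum to a fixed total, so that a large gene group that is high leaves less for the others, and the summed ribosomal protein genes had r = 0.44 with Tyrobp, -0.22 with Fcgr1 and -0.18 with Fcgr4. The part of this in the values above was not tested.

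The cells were then clustered without the members and without the listed pathway, marker and state genes (279 genes in all), which gave 9 clusters, here called by number. Genes that vary with the members still shape such clusters, so the levels are a description with no test. Cluster 1 (1104 cells) was led by Ms4a7, Folr2, Ifit3 and Rsad2, genes of resident macrophages and of the interferon response, and cluster 2 (1018 cells) by Ly6c2, Ccr2 and Prtn3, genes of monocytes and their precursors. Clusters 3 and 6 were led by histone genes, cluster 7 had high Malat1 and a summed G2 and M phase list at 2867 CPM against 1139 in all other cells, and cluster 5 was shallow, with a median of 1712.5 counts per cell. Cluster 9 held 26 cells with a median of 7.32% mitochondrial counts. Of the 90 pairs of a member and a cluster, 26 passed 1.5-fold between the CPM of the cluster and that of all other cells (log2 ratio of CPM + 1), against 24.4% of such pairs over the genes at 10 CPM or more. Of these, 9 came from cluster 9, and in the other 8 clusters 17 of 80 pairs passed, against 17.7% of all pairs, so the count by itself is near the background. The share of all genes that passed downward was 4.39%, 0.901%, 34.8%, 7.36%, 32.3%, 1.01%, 12.9% and 61.1% in clusters 2 to 9.

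In cluster 1, 4 members passed upward, and 6.04% of all genes did so there. The summed macrophage genes of a fixed list without the members had a log2 ratio of 0.82 in this cluster, the lipid-associated macrophage list 0.94, the lysosomal list 0.69 and the interferon response list 1.21. Fcgr4 stood at 36.3 CPM (34.3 to 38.5) in cluster 1 and at 3.12, 5.16, 6.70, 6.84, 5.51, 4.39 and 2.03 CPM in clusters 2 to 8. The log2 ratio of cluster 1 to all other cells was 2.74 for Fcgr4, 0.85 for Fcgr1, 0.81 for Fcgr3 and 0.65 for Trem2. Cluster 1 gave 66.2% of all Fcgr4 counts and 19.8% of the counts of all genes. After thinning to 10000 counts, Fcgr4 was found in 26.4% of the cells of cluster 1 and in 1.68% to 5.39% of those of the other clusters that had more than 11 such cells. Within cluster 1 the counts were still uneven, with Fcgr4 found in 38.3% of its cells where an even rate would have given 54.9%.

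Fcgr1 stood at 256 CPM in cluster 1 and at 99.02 to 169 CPM in clusters 2 to 8, and Fcgr3 at 358 CPM and at 180 to 220 CPM. Trem2 stood at 425 CPM in cluster 1, at 363 CPM in cluster 4 and at 235 to 314 CPM elsewhere. Fcer1g was highest in cluster 1 too, at 1890 CPM, with 1159 to 1772 CPM in clusters 2 to 8, but its log2 ratio of 0.43 did not pass. Fcgr2b was not higher there, at 80.2 CPM against 79.3 over all cells. The ratio of the summed counts of Fcgr1, Fcgr3 and Fcgr4 to those of Fcgr2b was therefore 8.11 (7.78 to 8.45) in cluster 1, 5.16 over all cells and 3.36 (3.21 to 3.52) in cluster 7.

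**Figure D4:**
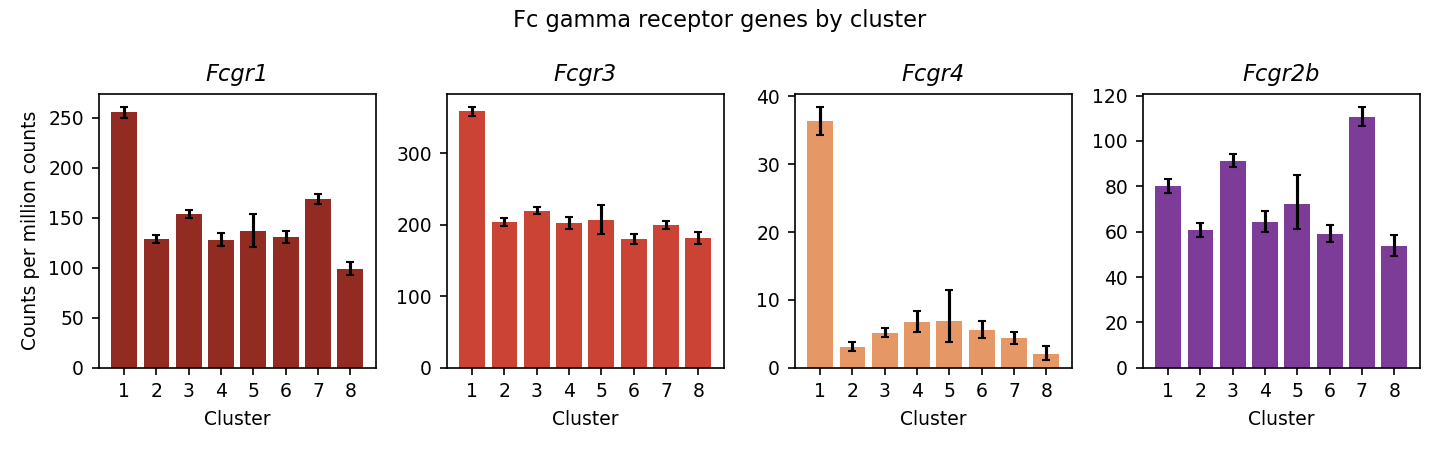
CPM of the 3 activating and the inhibitory Fc gamma receptor genes in clusters 1 to 8, each on its own axis from 0, with exact 95% Poisson intervals. The activating genes are highest in cluster 1 (Fcgr4 at 36.3 CPM), Fcgr2b in cluster 7 (111 CPM).

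The range over clusters 1 to 8 was widest for Fcgr4. On the log2 scale of CPM + 1 it was 3.62, and 99.6% of the genes at 10 CPM or more had a smaller range. As a plain ratio of CPM it was 17.9-fold, and the lowest cluster, cluster 8, held only 19 counts (1.22 to 3.17 CPM). By that plain ratio Lyn ranged 2.62-fold and Fcgr1 2.58-fold. Fcer1g, at 1.63-fold, and Hcst, at 1.66-fold, ranged least. The low log2 ratios of Fcgr4 in clusters 2 to 8 follow in part from the way they are built, since the other cells then include cluster 1.

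Of clusters 1 to 8, Lyn was highest in cluster 7, at 103.6 CPM, and lowest in clusters 4 and 6, at 42.1 and 39.5 CPM, with log2 ratios of 0.68, -0.76 and -0.86. Syk was highest in cluster 1, at 31.6 CPM (29.6 to 33.6). It stood at 15.2 CPM in cluster 4 (-0.67), at 28.8 CPM in cluster 7 and at 28.6 CPM in cluster 8. Fcgr2b, at 111 CPM in cluster 7, did not pass, at 0.57. Of all genes, 23.3% passed upward in cluster 7. Long transcripts moved with these clusters: the median log2 ratio of genes with transcripts of at least 3000 bases was -0.64 in cluster 4, -0.59 in cluster 6 and 0.47 in cluster 7, and that of genes under 1500 bases was 0.05, -0.02 and -0.04. Lyn, Syk and Fcgr2b have transcripts of that long class, and the part of length, or of the G2 and M phase genes that were high in cluster 7, in their values was not tested. Without ribosomal protein, mitochondrial, Gm42418 and AY036118 counts, Lyn in cluster 7 (0.56), Syk in cluster 4 (-0.53) and Fcgr4 in cluster 4 (-0.54) no longer passed.

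Of clusters 1 to 8, Tyrobp was lowest in the shallow cluster 5, at 3597 CPM (log2 ratio -0.67), and stood at 4907 to 6799 CPM in the other 7. Over these 8 clusters the ratio of Tyrobp to Fcer1g counts ran from 2.66 in cluster 5 to 4.23 in cluster 8, and was 3.79 over all cells. Fcgr1 was lowest of the 8 in cluster 8, at 99.02 CPM (-0.76). In cluster 9, Tyrobp stood at 633 CPM, Fcer1g at 142 CPM and Fcgr1 at 33.3 CPM (9.08 to 85.3), ribosomal protein genes took 4.85% of the counts, and no count of Hcst, Fcgr4 or Syk was found, where 3 counts would be 24.99 CPM. Gm42418 alone stood at 466291 CPM there, against 56338 CPM in all other cells, which leaves less of the total for every other gene. The part of this in the low member levels of cluster 9 was not tested.

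**Figure D5:**
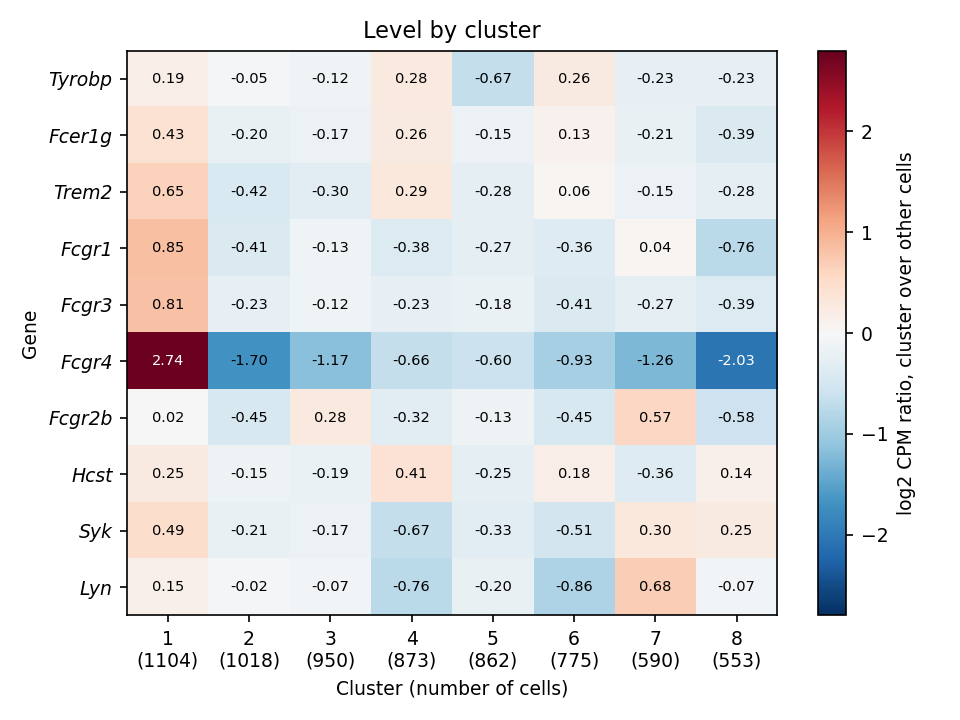
Log2 ratio of CPM + 1 between each of clusters 1 to 8 and all other cells, for each member; red is higher in the cluster, blue lower. Fcgr4 has the strongest colours (2.74 in cluster 1, -2.03 in cluster 8), and Fcgr1, Fcgr3 and Trem2 are red in cluster 1.

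The other genes of the pathway were read from fixed lists against the same 10 CPM, which 33.2% of all genes reached. None of the 5 other adaptors with a row reached it, the highest being Cd247 at 0.51 CPM, the zeta chain of T cell receptors, followed by Cd79b (0.24) and Cd3d (0.16). Of the 9 other Fc receptor genes with a row 2 did, Fcgrt at 41.1 CPM, which encodes the neonatal Fc receptor, and Fcrla at 11.2 CPM, followed by Fcrls at 8.18 CPM. Trem2 was the only member of the TREM family to reach it, the next being Trem3 (3.60 CPM), Treml2 (3.53) and Treml1 (0.97). Among 17 other receptors that pair with ITAM adaptors or with DAP10, 7 reached 10 CPM, led by Clec4d (186 CPM), Sirpb1c (34.0 CPM) and Cd300c2 (26.1 CPM). Klrk1, which encodes the DAP10 partner NKG2D and was looked up after its value was seen, stood at 0.025 CPM.

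Downstream genes were read more widely. Of 32 genes of the Syk and Tec kinase branch 23 reached 10 CPM, with Cdc42 (345 CPM), Rac2 (216 CPM) and Grb2 (141 CPM) highest. Of 10 genes of Src family kinases and their regulators 5 did, among them Csk (78.2 CPM), which restrains these kinases, and Ptprc (48.7 CPM), which encodes CD45. On the inhibitory side, 9 of 21 receptor genes with inhibitory motifs reached it, led by Sirpa (194 CPM), Milr1 (108 CPM) and Cd300a (102 CPM), and 9 of 11 phosphatases and inhibitory adaptors did, led by Ptpn6 (288 CPM), which encodes SHP-1, Dok2 (64.5 CPM) and Ptpn11 (46.0 CPM). Of 12 genes for ligands of TREM2 and proteases that cut it 9 did, led by Apoe (1708 CPM), Lpl (358 CPM) and Psenen (182 CPM).

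Marker lists were read for the labelled cell type and for other cells that use these genes. All 10 macrophage markers reached 10 CPM. None of the 3 mast cell and basophil markers with a row did (0.0935 CPM summed), nor any of 8 NK and T cell markers (2.10 CPM summed), nor any of the 4 fibroblast markers with a row (2.54 CPM summed). Among 6 neutrophil markers Prtn3 did, among 5 monocyte markers 4 did, and among 5 platelet markers Pf4 did, at 253 CPM.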

How the data were processed

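The whole-number counts were deposited as 1 matrix of genes and barcodes written by PISA 0.12, per the file headers. Cell Ranger and mm10 are named, with no role given, per the submitters' processing notes. For the aligner, the annotation, the calling of cells and the nature of a count (read or molecule), the processing is not given in the sources used here. The members and gene lists were chosen with earlier results of these data known. Barcodes under 500 genes or over 15% mitochondrial counts were dropped (6751 of 6837 stayed), and doublets were left in. Counts were summed over cells to counts per 1000000 (CPM), and ratios used log2(CPM + 1) with a threshold of 1.5-fold. For correlations each cell was thinned to 10000 counts with a fixed seed. Cells were clustered with scanpy 1.11.5, igraph 0.11.9 and leidenalg 0.10.2 (2000 variable genes, 30 components, 15 neighbours, Leiden resolution 0.5). numpy 2.4.6 and scipy 1.17.1 gave intervals. Named were all members, the 3 highest genes of each pathway list and the 3 genes most like each member at 50 CPM or more. A few of the genes so chosen are not reported here. On simulated data of 20034 genes, 100 changed 2-fold and 100 changed 4-fold between 2 pools of counts gave median log2 ratios of 0.98 and 1.97. There the median shift of the unchanged genes was taken off first, which was not done for the ratios reported here. No cells were simulated for these ratios, and the simulated pools were larger than the smaller clusters. Promoter sequences are from RefSeq (GRCm38.p6), positions from GENCODE M21. With 1 sample, no test between groups and no p-value was computed.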

Additional observations from a re-analysis of the deposited data

Results flagged for a closer look

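The 86 barcodes left out for few genes or many mitochondrial counts still held counts of the members, 305 of their 243219 counts or 1254 CPM (exact 95% Poisson interval 1117 to 1403), where 3 counts would be 12.3 CPM. In the kept cells the 10 members summed to 8102 CPM. Tyrobp stood at 740 CPM in the barcodes left out and at 5699.67 CPM in the kept cells, and Fcer1g at 209.7 and 1502 CPM. Lyn stood at 74.0 and 69.6 CPM, and no count of Hcst was found in the barcodes left out.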

How the results depend on the processing

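No paired analysis was possible because the barcodes carry no sample or replicate number. With 10 groups of cells by depth in place of 5, 1 member (Fcgr4) passed 1.5-fold where none had. Its log2 difference was positive there, but -0.15 with 5 groups. As a mean within clusters, 7 of the 45 pairs reached r = 0.1, with Fcer1g and Trem2 at 0.22 and Fcer1g and Fcgr1 at 0.17. Without cluster 1, an alternative chosen after seeing the data, 5 pairs did. Without cluster 9, also chosen after seeing the data, 17 pairs of a member and a cluster passed 1.5-fold in place of 26. The other alternatives for these counts kept them within 1.5 times, and no value that had passed its threshold in the main setting changed sign. With a pseudocount of 10 CPM, Fcgr4 no longer passed in clusters 4 (-0.34), 5 (-0.31) and 6 (-0.47), nor Syk in cluster 4 (-0.47). Without the deepest 5% of cells, Lyn in cluster 7 fell to 0.56 and Fcgr2b there rose to 0.62. Depth limits the reading of Hcst, Syk and Fcgr4, of which most cells held no count.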
